A study of Mus musculus with 9 samples.

Results

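The genes described here are 9 serpins, a family of protease inhibitors, read in CD103+ dendritic cells of mouse lung. The members were named by gene symbol, and all 9 were found among the 45535 rows of the table that carry a symbol. The table holds 69 genes whose symbol begins with Serpin, so 60 serpins lie outside the set. The members were proposed with their before and after values in view. Their differences between the groups are therefore given as a description and without a test.

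Mice labelled C57/BL6j received bleomycin, which injures the lung and leads to fibrosis, for 7 days in both groups. Lungs were digested with collagenase, and cells that carry the integrin CD103 were taken out on magnetic beads. RNA of 5 samples was sequenced straight after isolation (before culture). The other 4 samples were kept ex vivo for 18 h in antibiotic-containing RPMI with fetal bovine serum (after culture). It is not stated if a sample is 1 mouse or a pool, so the spread between samples may be partly technical.

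A serpin presents an exposed loop to its target protease as bait. Once the loop is cleaved, the serpin changes shape and traps the protease in a covalent complex, so each inhibitor molecule is used once. Clade B serpins, named Serpinb, mostly stay inside the cell, where they protect immune cells from proteases of their own granules or of killer lymphocytes. Serpins of clades A, E, F and G are mostly secreted and control proteases of inflammation, clotting, fibrinolysis and complement. Dendritic cells are known to express Serpinb9, an inhibitor of granzyme B.

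The values are normalized read counts, in which 1 read was worth 0.758 to 1.79. Reads in named rows ran from 14.7 to 35.3 M per sample, and the ranges of the groups overlapped. Of the 18202 genes whose mean reached 10, 68.8% passed a Benjamini-Hochberg adjusted p of 0.05 in limma, 34.2% higher and 34.6% lower after culture. The groups' values did not overlap for 57.3% of those genes, and 33.0% differed by at least 2-fold. Of 10 genes that mark the type 1 conventional dendritic cell, 9 were lower and 1 was higher after culture, and Itgae, which encodes CD103, was read in every sample (mean ± SD, 18138 ± 1537 over the 5 samples before and 1727 ± 335 over the 4 after culture). All 8 markers of mature dendritic cells were higher. Transcripts that mark other cell types were also read, and most of these lists are given below beside the genes they are compared with. Of the rest, 1 of 4 B cell markers was higher and none lower, and 1 of 2 tested mast cell and basophil markers was lower.

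Of the 9 members, 5 belong to a cluster of 16 genes with a Serpin symbol on chromosome 13 (chr13:32842092-34002794, GRCm38, GENCODE M21). Another 2 lie side by side in the Serpina3 cluster of chromosome 12. Serpinb9 (chr13:33003250-33017957, plus strand, 8 exons) and Serpinb9b (chr13:33027416-33041884, plus strand, 7 exons) are neighbours, and Serpina3f (chr12:104214544-104221129) and Serpina3g (chr12:104236245-104241939) are neighbours too, both on the plus strand. The other chromosome 13 members are Serpinb1a (chr13:32842092-32851185, minus strand), Serpinb6b (chr13:32965209-32979067, plus strand) and Serpinb6a (chr13:33917918-34002794, minus strand). Serpinb2 lies at chr1:107511423-107535478 on the plus strand and Serping1 at chr2:84765387-84775444 on the minus strand. Neighbouring copies can share reads, so the sequences below show how alike each pair is. In the coding sequence, Serpinb9 and Serpinb9b were identical at 86.5% of 1122 aligned bases. Their longest identical run was 62 bases, at coding bases 261 to 322 in both, and is shown in capitals with 20 bases on either side in lower case.
Serpinb9: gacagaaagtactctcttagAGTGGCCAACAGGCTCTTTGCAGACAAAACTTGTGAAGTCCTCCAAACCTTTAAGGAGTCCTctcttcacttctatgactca
Serpinb9b: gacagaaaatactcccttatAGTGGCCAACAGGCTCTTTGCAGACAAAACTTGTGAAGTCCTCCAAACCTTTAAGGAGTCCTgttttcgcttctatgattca

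A run of this length is rare in the pair. Of all windows of 50 bases in the Serpinb9 transcript, 0.380% occurred in the transcript of another gene, and the corresponding share for Serpinb9b was 0.499%. The other clade B members of chromosome 13 had 2.96% (Serpinb6a), 3.12% (Serpinb6b) and 3.42% (Serpinb1a) of shared windows, and Serpinb2 and Serping1 had none. The pair on chromosome 12 is less distinct. Serpina3f and Serpina3g were identical at 87.4% of 747 aligned coding bases, and 10.7% and 16.0% of their windows were shared with other genes. Their counts are therefore less certain, because the way the authors' counting treated such reads is not given in the sources used here. The longest identical run of this pair, 56 bases at coding bases 899 to 954 of Serpina3f and 323 to 378 of Serpina3g, is in capitals.
Serpina3f: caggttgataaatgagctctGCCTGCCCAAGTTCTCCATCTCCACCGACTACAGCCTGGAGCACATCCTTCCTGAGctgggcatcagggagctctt
Serpina3g: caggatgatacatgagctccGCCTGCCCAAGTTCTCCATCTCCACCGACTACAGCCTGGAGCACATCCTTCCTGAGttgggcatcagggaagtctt

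The sequence before the start site was also compared. It is shown for both pairs because the genes of each lay on the same side in this comparison. RefSeq promoter windows (GRCm38.p6) were matched for 7 of the 9 members, and Serpinb1a and Serping1 had no entry. The 250 bases upstream of the annotated start were searched on both strands for 7 motifs. These were the interferon-stimulated response element ISRE (GAAA, any 2 bases, GAAA), the interferon-gamma activated site GAS (TTCNNNGAA), the PU.1-IRF composite element (GGAA, any 2 bases, GAAA), AP-1 (TGANTCA), the core of the antioxidant response element (TGACNNNGC), the TATA box (TATAAA) and NF-kB. Capitals mark every match. The windows of Serpinb9 (chr13:33004291-33004540, plus strand) and Serpinb9b (chr13:33027164-33027413, plus strand) follow. The RefSeq start of Serpinb9 lies inside the longer GENCODE gene.
Serpinb9: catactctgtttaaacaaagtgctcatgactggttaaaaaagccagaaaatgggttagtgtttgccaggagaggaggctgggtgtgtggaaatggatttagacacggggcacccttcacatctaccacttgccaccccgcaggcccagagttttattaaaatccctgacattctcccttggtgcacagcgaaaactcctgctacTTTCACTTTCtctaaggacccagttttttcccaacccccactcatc
Serpinb9b: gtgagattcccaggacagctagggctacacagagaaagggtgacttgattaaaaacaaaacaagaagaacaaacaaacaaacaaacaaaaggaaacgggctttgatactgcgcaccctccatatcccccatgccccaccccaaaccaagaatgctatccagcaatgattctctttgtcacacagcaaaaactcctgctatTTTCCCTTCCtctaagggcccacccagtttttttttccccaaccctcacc

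These windows were identical at 68.1% of 226 aligned bases. For scale, the Serpinb9 window was identical to that of Serpinb6b at 55.9% and to that of Serpina3g at 55.2% of aligned bases. The windows of the paralogs Serpinb6b and Serpinb6a were identical at 54.5%. Serpinb9 held an ISRE on the minus strand, 46 to 37 bases before the start, a motif found in 2.98% of the 32851 RefSeq promoter windows. The aligned stretch of Serpinb9b differed by A5C and T9C, counted from the 5′ end of the site as printed. A5C falls on an any-base position of the ISRE, and T9C left no ISRE match. The Serpinb9b stretch matched the PU.1-IRF composite instead, which 2.30% of windows held. The next windows are those of Serpina3f (chr12:104214294-104214543, plus strand) and Serpina3g (chr12:104235897-104236146, plus strand).
Serpina3f: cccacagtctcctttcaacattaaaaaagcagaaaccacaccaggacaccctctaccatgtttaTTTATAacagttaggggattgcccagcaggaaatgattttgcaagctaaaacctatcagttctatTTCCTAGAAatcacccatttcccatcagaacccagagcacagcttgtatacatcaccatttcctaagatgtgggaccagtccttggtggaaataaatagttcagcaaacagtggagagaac
Serpina3g: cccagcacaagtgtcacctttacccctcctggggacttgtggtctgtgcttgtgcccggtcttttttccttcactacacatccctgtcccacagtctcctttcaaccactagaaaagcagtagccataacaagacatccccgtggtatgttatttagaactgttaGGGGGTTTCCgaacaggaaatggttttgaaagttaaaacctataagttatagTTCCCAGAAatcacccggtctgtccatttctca

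These windows were identical at 82.6% of 161 aligned bases. Both held a GAS, which 7.02% of windows held, with the difference T5C inside it. Serpina3g also held an NF-kB match (7.25% of windows), and Serpina3f a TATA match on the minus strand (12.4% of windows). A GAS and an ISRE were also found before 1 of the starts of Serpinb6a, and the core of the antioxidant response element (10.2% of windows) before the other. Serpinb2 held AP-1 (6.75% of windows) and TATA matches before both of its starts and a GAS before 1 of them. The Serpinb6b window held none of the 7 motifs. These matches describe letters in short windows only.

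The 5 clade B members of chromosome 13 were all higher after culture. Serpinb9, known in mouse also as SPI6, inhibits granzyme B, the main death-inducing protease of killer lymphocytes. Its normalized counts were 1637, 1779, 1738, 2064 and 1462 before culture and 23541, 20879, 25491 and 23182 after culture. All samples after culture lay far above all samples before. The means were 1736 ± 220 and 23273 ± 1891 (SD), 13.4-fold higher after culture, a log2 difference of 3.75 (SE 0.10).

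Serpinb9b is a close relative and has been linked to inhibition of granzyme M. Its values were 50.5, 61.9, 57.2, 97.9 and 53.7 before culture and 7737, 8299, 7166 and 7094 after culture. All samples after culture lay above all samples before, 118-fold higher on the means (64.2 ± 19.3 against 7574 ± 562, SD), with a log2 difference of 6.90 (SE 0.16), the fifth largest toward higher values among the 18202 genes. The highest value before culture, 97.9 in replicate 4, stood apart from the other 4. Without that sample the log2 difference was 7.06. Before culture the group's coefficient of variation was 30.1%, against 7.42% after culture.

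Serpinb6b, a mouse inhibitor of granzyme A, went from 567, 613, 682, 771 and 551 to 8123, 7532, 8894 and 8382. This was 12.9-fold higher, with a log2 difference of 3.70 (SE 0.10) and no overlap. Its paralog Serpinb6a, an inhibitor of cathepsin G and related proteases, differed far less. Serpinb6a values were 455, 648, 570, 563 and 374 before and 1213, 1395, 1156 and 1184 after culture, 2.37-fold higher (log2 difference 1.26, SE 0.14), again with no overlap. The 2 genes were identical at 86.4% of 1131 aligned coding bases. Their levels per length, which were 0.854 ± 0.137 (SD) Serpinb6b to 1 Serpinb6a before culture, came to 4.61 ± 0.665 to 1 after culture.

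Serpinb1a inhibits neutrophil elastase, cathepsin G and proteinase 3. Its normalized counts were 302, 377, 359, 382 and 328 before and 3900, 4033, 5072 and 4450 after culture. The difference was 12.5-fold (log2 difference 3.64, SE 0.10), and the groups did not overlap. Transcripts of these targets, which neutrophils store as proteins, were low. Ctsg, which encodes cathepsin G, had at most 1 read in a sample and Elane at most 14. Prtn3, which encodes proteinase 3, had 8.95 to 14.8 normalized counts before and 0 to 8.19 after culture, without overlap, and its mean was too low for the test. The 7 neutrophil markers, by contrast, summed to 12721 to 21985 before and 813 to 1687 after culture, with 6 of 6 tested markers lower and Ly6g at 0 in all 4 samples after culture. Serpinb1a thus lay opposite in direction to the neutrophil list. The 8 markers of mature dendritic cells lay in the same direction as the 5 clade B members of chromosome 13. These markers had sums of 46737 to 50032 before and 220282 to 244394 after culture. Their part in these differences was not tested.

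Serpinb2, or plasminogen activator inhibitor type 2, is made by activated monocytes and macrophages. It was the member whose groups overlapped. Its values of 227, 299, 406, 203 and 562 before and 452, 600, 399 and 337 after culture gave a ratio of 1.32 and a log2 difference of 0.47 (SE 0.26). The spread before culture was wide, with a coefficient of variation of 43.5%. Among 10 monocyte and macrophage markers, 5 were lower, 1 was higher and 4 did not pass the threshold. Their sums overlapped (123479 to 177804 before and 156351 to 289119 after culture). Much of these sums was Lyz2, the 1 marker that was higher (95552 ± 16767 before and 193537 ± 45834 after culture, SD). Serpinb10 overlaps the Serpinb2 gene on the same strand, so reads of the shared span may be counted for either.

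The 3 secreted or clade A members were lower after culture. Serping1 encodes the inhibitor of the complement proteases C1r and C1s and of plasma kallikrein. Its values were 1081, 1177, 1296, 1064 and 911 before and 185, 190, 144 and 96.6 after culture. The groups lay apart, 7.19-fold lower after culture (1106 ± 143 against 154 ± 43.4, SD; log2 difference −2.88, SE 0.18).

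Serping1 is also made by stromal cells, and markers of several non-immune cell types moved the same way as the 3 lower members. All 8 fibroblast markers were lower, and the list summed to 17234 to 30959 before and 2454 to 4804 after culture. All 8 endothelial markers were lower as well (23551 to 34426 before and 3297 to 4324 after culture), as were 6 of 8 alveolar epithelial markers (23671 to 37845 before and 4568 to 7942 after culture) and 4 of 4 mesothelial markers (554 to 890 before and 100.1 to 143 after culture). No marker of these 4 lists was at 0 in every sample after culture. Some immune lists fell as well. Of the type 1 conventional dendritic cell markers, 9 of 10 were lower (sums of 144087 to 170495 before and 21031 to 23593 after culture). The neutrophil and NK lists also fell, while the mature dendritic cell list rose. The sums of the other immune lists overlapped between the groups. In these bulk samples, fewer cells of a type and less RNA per cell cannot be told apart. The part of any of these cell types in the differences of Serping1, Serpina3f and Serpina3g was not tested.

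Serpina3g, known as Spi2A, is an intracellular clade A serpin that inhibits lysosomal cathepsins released into the cytosol. Its values were 1184, 947, 1251, 1085 and 1165 before and 365, 384, 407 and 399 after culture, 2.90-fold lower (log2 difference −1.53, SE 0.09) with no overlap. Serpina3f, a mouse relative of human antichymotrypsin, had 179, 167, 181, 193 and 143 before and 43.3, 31.8, 43.7 and 11.4 after culture. It was 5.30-fold lower (log2 difference −2.53, SE 0.32), and replicate 4 after culture was the lowest. Leaving out that sample gave −2.10.

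**Figure D1:**
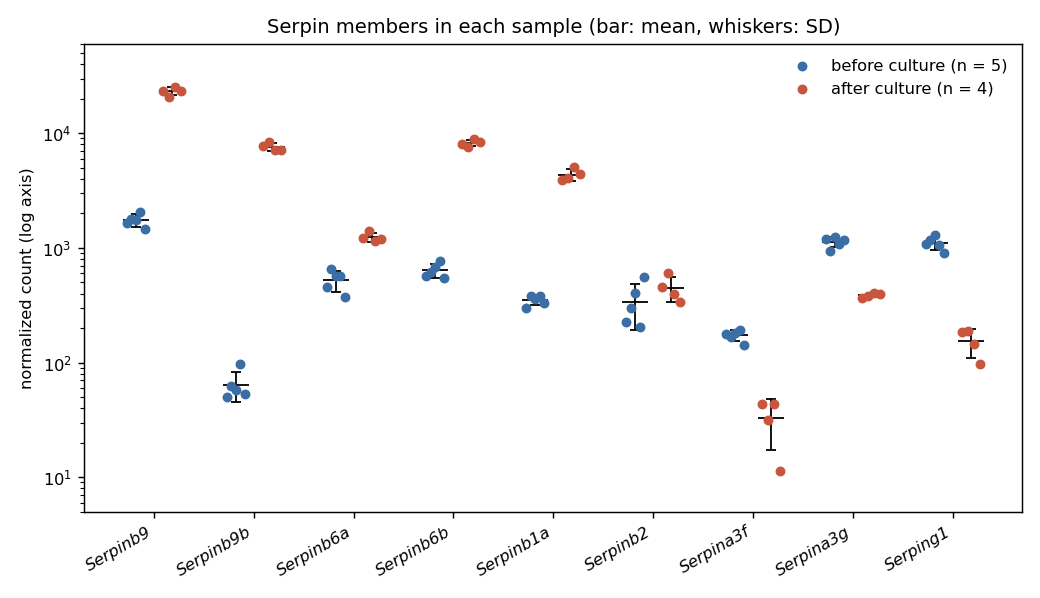
Normalized count of each of the 9 serpins (log axis) in the 5 samples before culture (blue) and the 4 after culture (red). Points are samples, bars are means and whiskers are SD. The groups overlap only for Serpinb2, and Serpinb9b spans 50.5 to 97.9 before and 7094 to 8299 after culture.

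In all, the means of 6 members were higher and those of 3 lower after culture. The groups did not overlap for 8 members, where 57.3% of all tested genes did not, and 8 differed by at least 2-fold, where 33.0% did. Serpinb9b, Serpinb9, Serpinb6b and Serpinb1a were at least 8-fold higher, as were 1.19% of all tested genes. The members were chosen on this contrast, so these counts say nothing about the family. The median log2 difference of the members was 1.26, against 0.0065 over all tested genes.

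Divided by transcript length, the order of the members turned over. Before culture Serping1 (625 ± 80.7 counts per kb, SD), Serpina3g (625 ± 64.7) and Serpinb9 (500 ± 63.5) were highest, and their ranges overlapped. Serpinb6a (347 ± 71.6), Serpinb6b (290 ± 41.3), Serpinb1a (182 ± 17.8), Serpinb2 (170 ± 73.9), Serpina3f (76.8 ± 8.41) and Serpinb9b (19.7 ± 5.93) followed. In this order the ranges of Serpinb9 and Serpinb6a overlapped, as did those of Serpinb6a and Serpinb6b and those of Serpinb1a and Serpinb2.

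After culture Serpinb9 led with 6703 ± 545 counts per kb (SD), then Serpinb6b with 3754 ± 258. Serpinb9b (2328 ± 173) and Serpinb1a (2275 ± 275) came next and overlapped in range. Serpinb6a (822 ± 71.7) stood alone, Serpinb2 (224 ± 56.4) and Serpina3g (216 ± 10.3) overlapped, and Serping1 (87.0 ± 24.6) and Serpina3f (14.5 ± 6.73) were lowest. Serpinb9 held 17.6 ± 1.69% of the members' summed counts per kb before and 40.8 ± 1.62% after culture (SD). The share of Serpina3f, Serpina3g and Serping1 together went from 46.8 ± 2.82% to 1.93 ± 0.175%. The ratio of Serpinb9 to Serpinb9b per kb went from 26.2 ± 4.04 to 2.90 ± 0.413.

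**Figure D2:**
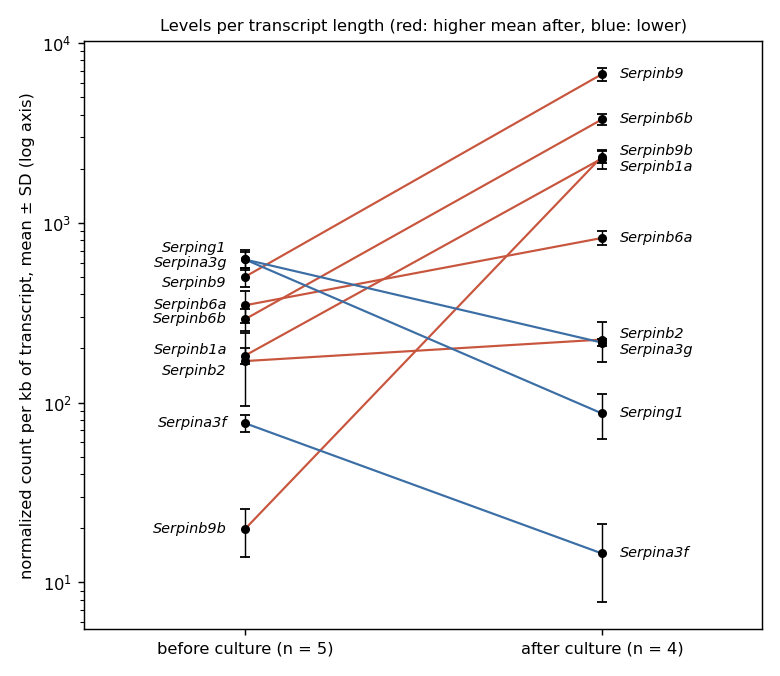
Mean normalized count per kb of transcript (log axis, whiskers SD) of the 9 serpins before (n = 5, left) and after culture (n = 4, right), joined by lines that are red where the mean is higher and blue where it is lower after culture. Serpinb9b goes from the lowest place (19.7) to the third (2328), and Serping1 from the first (625) to the eighth (87.0).

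Single samples shaped the members' spread within groups. Before culture, replicate 4 held the highest value of 5 members and replicate 5 the lowest of 5. These were also the deepest and the shallowest sample of that group (28.8 and 14.7 M reads in named rows). After culture, replicate 3 held the highest of 5 members and replicate 4 the lowest of 4. The sum of the 8 NK and cytotoxic cell markers was also highest in replicate 4 before culture (4567, against 2443 to 2721 in the other 4). So were the alveolar epithelial sum (37845, against 23671 to 26941), the T cell sum (8053, against 6848 to 7102) and the mast cell and basophil sum. The fibroblast, endothelial and neutrophil sums were highest in replicate 3 before culture.

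All 5 members on chromosome 13 had higher values after culture. Serpinb6b, Serpinb9 and Serpinb9b lie next to each other on the plus strand, and the next serpin on that strand is Serpinb1b. Serpinb1b, a paralog of Serpinb1a that is no member, rose from 1.79 to 4.49 per sample before to 33.4 to 41.1 after culture. Its limma adjusted p was 1.42e-06, with a log2 difference of 3.15 (SE 0.32). It had at most 5 reads in a sample before culture, and 3.52% of its windows are shared, most of all with Serpinb1a. The other 10 serpin genes of the cluster that are no members had means under 10 and were not tested. Of the 11 that are no members, 7 had at most 3 reads in any sample, and Serpinb9d, Serpinb9e, Serpinb9f and Serpinb9g had none. Serpinb9h, also without a read, had no entry under that symbol in GENCODE M21 and is not counted here.

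The tested genes nearest to the cluster, and those that overlap Serpinb6a, were read for comparison. Gmds, on the side of Serpinb1a, fell from 267 ± 20.9 to 103 ± 8.64 (SD; limma adjusted p = 2.28e-07). Wrnip1, just before Serpinb1a, did not pass the threshold (579 ± 62.2 against 552 ± 55.8, SD; limma adjusted p = 0.581). At the other end Serpinb6a overlaps Nqo2, Ripk1 and 1110046J04Rik on the opposite strand, and the strandedness of the counts is not given. Nqo2 (352 ± 34.9 against 416 ± 43.4, adjusted p = 0.0580) and Ripk1 (2311 ± 152 against 2234 ± 163, adjusted p = 0.575) did not pass the limma threshold. 1110046J04Rik rose from 9.20 ± 1.69 to 26.1 ± 5.75 (adjusted p = 5.98e-04). Beyond Serpinb6a, Gm17083 fell from 238 ± 60.1 to 131 ± 14.8 (limma adjusted p = 0.00106). Gm17084 did not pass the threshold (limma adjusted p = 0.296), and Bphl fell from 173 ± 22.4 to 129 ± 19.7 (adjusted p = 0.0183). These neighbours were picked by position after values were seen.

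**Figure D3:**
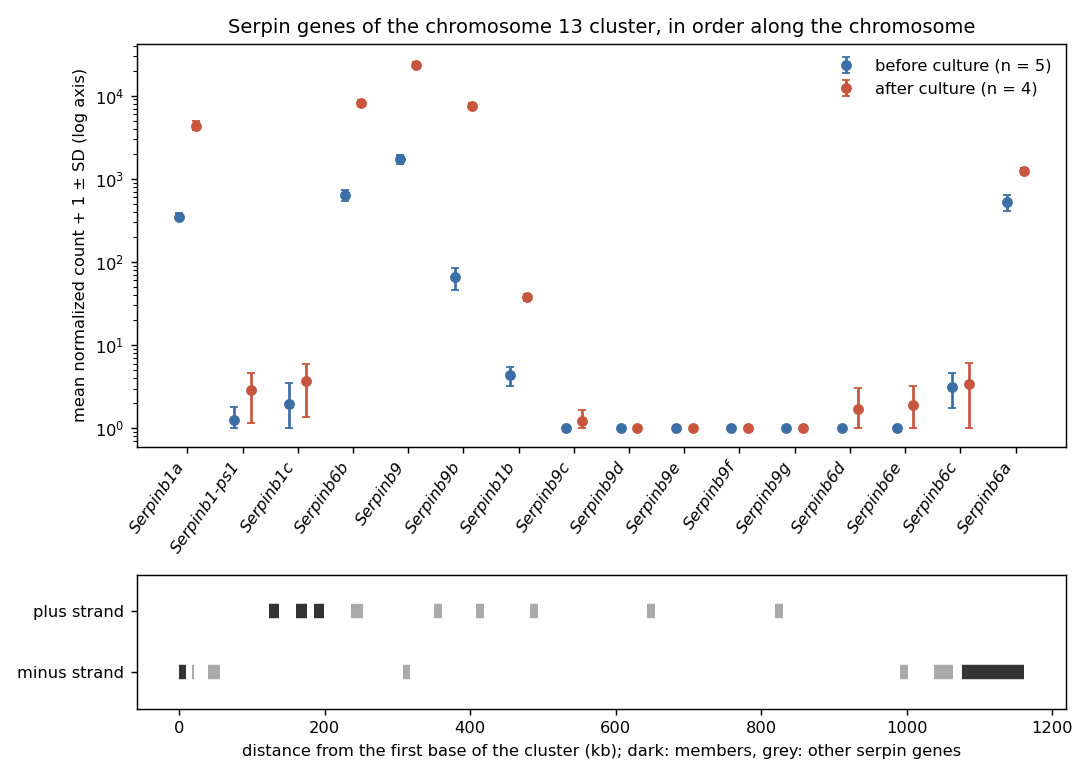
Upper panel, mean normalized count plus 1 (log axis, whiskers SD) of the 16 genes with a Serpin symbol in the chromosome 13 cluster. They are in chromosomal order, before (blue, n = 5) and after culture (red, n = 4). Lower panel, the extent and strand of each gene in kb from the first base of the cluster, with the 5 members dark. The members and Serpinb1b stand out, while 7 of the other genes had at most 3 reads in any sample.

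The remaining family was read next. Of the 60 other serpin genes, 44 had means under 10, and 17 had no read in any sample. Of the 16 tested, 6 were higher, 8 were lower and 2 did not pass the limma threshold, with a median log2 difference of −0.17. The share called among all tested genes was 68.8%. The family was picked with earlier results known.

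Among the higher ones was Serpinb8, an intracellular inhibitor of furin. It rose 2.36-fold, from 264 ± 40.4 to 623 ± 259 (SD; limma adjusted p = 3.89e-04). Furin, its target protease, fell from 24200 ± 3535 to 6087 ± 923.

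The lower serpins were mostly secreted ones. Not all serpins outside clade B were lower, though. Serpinc1 (log2 difference 0.67, limma adjusted p = 0.0454) and Serpini1 (0.89, adjusted p = 0.0121), named after their values were seen, were higher. Serpina3n, which inhibits granzyme B and cathepsin G and lies in the cluster of Serpina3f and Serpina3g, had 1842, 1687, 3087, 1440 and 1663 before and 148, 183, 114 and 189 after culture. It fell by 3.58 on the log2 scale (SE 0.20, limma adjusted p = 3.64e-09). Serpinf1, the antiangiogenic factor PEDF, fell by 3.00 on the log2 scale (SE 0.20, limma adjusted p = 2.34e-08), from 341 ± 9.49 (SD) to a mean of 43.7. Serpine2, an inhibitor of thrombin and plasminogen activators, fell from 375 ± 88.7 to 147 ± 52.3 (−1.37, adjusted p = 9.69e-05).

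Serpinh1, a chaperone of collagen that inhibits no protease, fell from 1355 ± 332 to 836 ± 158 (SD; −0.68, limma adjusted p = 0.00296), with overlapping groups. Serpinf1, Serpine2 and Serpinh1 are known from fibroblasts, whose 8 markers were all lower, as given for Serping1. The part of fibroblasts in these differences was not tested. Serpinb10, a clade B serpin of blood-forming cells, was singled out after its values were seen. GENCODE M21 lists it as a polymorphic pseudogene, and it overlaps Serpinb2 on the same strand. Serpinb10 had 79.0, 129, 125, 166 and 127 before and 4.42, 3.03, 0 and 3.80 after culture, with at most 5 reads in a sample after culture.

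**Figure D4:**
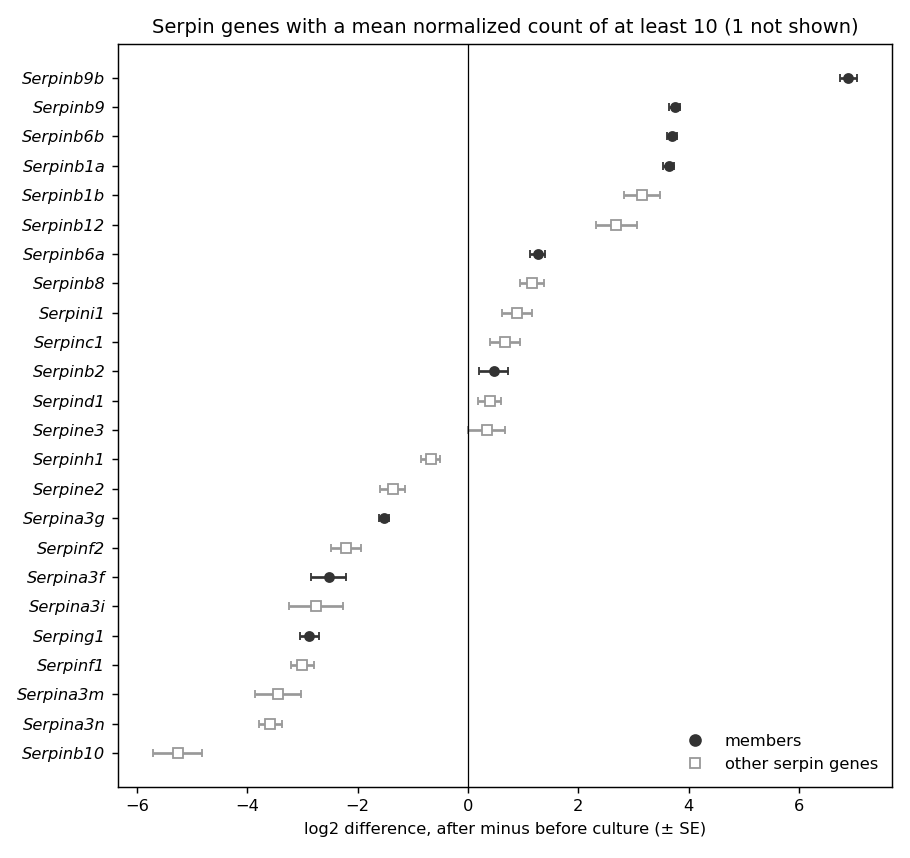
Log2 difference after minus before culture, with its SE, of serpin genes whose mean reached 10. Filled circles are the 9 members and open squares 15 of the 16 other serpins tested. Members reach from −2.88 (Serping1) to 6.90 (Serpinb9b), and Serpinb10 is lowest of the genes shown (−5.26).

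Proteases that serpins inhibit moved in both directions. Of 32 proteases listed as known or likely serpin targets, 24 were tested, and 13 were higher, 8 lower and 3 not past the limma threshold (median log2 difference 0.74), where 68.8% of all genes were called. Granzyme B, the target of Serpinb9, fell, with Gzmb at 289, 324, 303, 457 and 311 before and 63.6, 66.0, 13.6 and 34.2 after culture (log2 fold change −3.11, SE 0.36, adjusted p = 4.66e-06). Gzma, the target of Serpinb6b, fell from 415 ± 176 to 28.5 ± 12.1 (SD; −3.81, adjusted p = 5.92e-08). Gzmm, linked to Serpinb9b and named after its values were seen, was at 46.4 ± 5.26 and 49.4 ± 20.6 (adjusted p = 0.961). Gzmk, also named after its values were seen, went the other way, from 18.0 ± 3.22 to 41.8 ± 14.2 (1.14, adjusted p = 0.00171).

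Granzymes are made by NK and T cells, and the markers of these cells were followed. Of the 8 NK and cytotoxic cell markers, which include Gzma, 6 were lower and none was higher. They summed to 2443 to 4567 before and 908 to 1533 after culture. Of 8 T cell markers, 1 was higher and 2 were lower, and their sums overlapped (6848 to 8053 and 6240 to 8139). The members Serpinb9, Serpinb9b and Serpinb6b were higher where the NK markers were lower.

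C1s1 and C1ra, the complement proteases that Serping1 inhibits, fell together with it. C1s1 went from 298 ± 53.2 to 47.2 ± 9.21 (SD; log2 fold change −2.63, limma adjusted p = 1.88e-08) and C1ra from 342 ± 48.0 to 144 ± 39.9 (−1.27, adjusted p = 2.28e-05). Of the targets of Serpinb2, Plau, or urokinase, rose from 1436 ± 248 to 3187 ± 1076 (1.09, adjusted p = 4.55e-04). Plat, the tissue plasminogen activator, fell from 645 ± 54.2 to 287 ± 16.9 (−1.16, adjusted p = 1.02e-07).

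The 2 other listed proteases with the smallest adjusted p were St14 and Casp1. St14, the membrane protease matriptase, rose from 212 ± 17.7 to 4435 ± 339 (SD; log2 fold change 4.38, limma adjusted p = 5.92e-13). Casp1, the protease of the inflammasome, rose from 368 ± 25.8 to 986 ± 57.0 (1.42, adjusted p = 6.20e-09). Lysosomal cathepsins, which Serpina3g can inhibit, were named after their values were seen. Ctsb rose from 25766 ± 5322 to 72383 ± 20805 (adjusted p = 1.90e-05) and Ctsl from 2320 ± 541 to 11654 ± 6076 (adjusted p = 1.47e-05), while Serpina3g was lower.

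Inhibitors of other families were compared for context. Of 22 listed genes, 21 were found and 17 tested, with 3 higher, 10 lower and 4 not past the limma threshold (median log2 difference −0.78), where 68.8% of all tested genes were called. Cstb, the cytosolic cathepsin inhibitor cystatin B, rose from 1266 ± 201 to 5012 ± 783 (SD; log2 fold change 1.99, adjusted p = 1.45e-08). Spint2, an inhibitor of matriptase, rose from 855 ± 83.9 to 2063 ± 165 (1.27, adjusted p = 2.91e-08). The secreted cystatin C gene Cst3 fell from 95674 ± 6938 to 44666 ± 1990 (−1.10, adjusted p = 2.56e-07).

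Stfa2l1, of the stefin A family found in neutrophils, fell from 158 ± 81.6 (SD) to 0 reads in each of the 4 samples after culture (limma adjusted p = 1.48e-09). Set against a floor of 3 reads per library, it was at least 57.9-fold lower. The neutrophil markers fell over the same samples, as given for Serpinb1a, and their part in this difference was not tested.

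**Figure D5:**
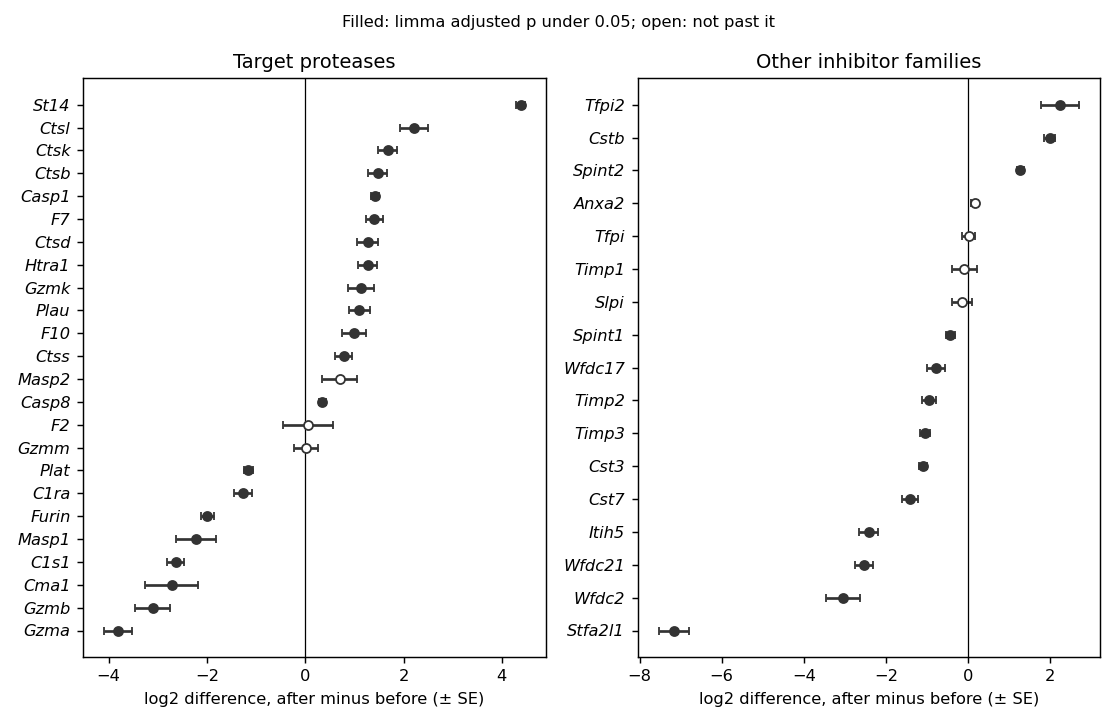
Log2 difference after minus before culture, with its SE, of the 24 tested target proteases (left) and the 17 tested inhibitors of other families (right). Filled points passed a limma adjusted p of 0.05. St14 lies highest (4.38) and Gzma lowest (−3.81) on the left, and the point of Stfa2l1 depends on the pseudocount because it had no read after culture.

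For likeness of pattern, each member's profile over the 9 samples, as log2(value + 1) centred on its own mean, was set against 11771 genes that are no serpins and have a mean of at least 100. Serpinb9, Serpinb6b and Serpinb1a had the same 3 nearest genes, Gbp5, Stat4 and Gbp2, at Euclidean distances of 0.437, 0.534 and 0.676 from Serpinb9. Gbp5 went from 561 ± 28.8 to 7334 ± 1121 (SD), Stat4 from 532 ± 64.5 to 5627 ± 599 and Gbp2 from 1038 ± 135 to 10367 ± 343. Gbp2 and Gbp5 encode interferon-inducible GTPases, and Stat4 a transcription factor of interleukin 12 signalling.

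The other members had other nearest genes. Serpinb9b lay nearest to Apol7c (distance 1.13), Rnf152 (1.43) and Ahrr (1.63). Serpinb6a lay nearest to Gm44250 (0.291), Serpinb2 to 4930430E12Rik (0.772), Serpina3f to Plet1os (0.923), Serpina3g to Lpcat4 (0.306) and Serping1 to Spry4 (0.530). The 9 points of each profile share their libraries and fall into 2 groups, so these distances are a description.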

How the data were processed

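RNA of 5 samples before and 4 after culture was sequenced. The authors deposited 1 table of gene-level signal, namely normalized counts. Per the submitters' processing notes, DESeq2 and the build GRCm38 were used, and the aligner, counting tool, strandedness and annotation are not given in the sources used here. In each sample 100% of values were an integer times a fixed step (tolerance 0.001 reads), so whole reads were recovered. The 3782 rows without a symbol, with 3.87 to 10.9% of reads, were left out. Counts are not corrected for gene length. No 2 samples of a group were identical (chi-square per degree of freedom 7.02 to 66.9).

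Groups came from the sample titles. Genes with a mean of at least 10 were transformed as log2(value + 1), and the group effect was fitted in limma 3.58.1 (R 4.3.3, mean-variance trend, two-sided), with Benjamini-Hochberg adjustment over 18202 genes and a threshold of 0.05. A log2 difference on this scale understates the change of low genes, and folds are ratios of group means. Alternatives comprised a pseudocount of 0.5 or 8, a minimum mean of 50 or none, TMM, upper quartile and quantile scaling, edgeR 4.0.16 and DESeq2 1.42.0 on recovered reads, replicate blocks and leaving out each sample. The fits were also run on simulated data with 200 genes changed 2-fold, far fewer than were called here. At a dispersion (spread beyond counting noise) of 0.02 limma found 191 of them, with 5.91% of its calls false. At 0.1 it found 40, with 0% false.

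The members and lists were chosen with earlier results of these data known. Named were all members, other called serpins whose mean reached 100, the 4 genes of smallest adjusted p of each list, 7 proteases fixed by name, and the 3 nearest genes per member. The values of 1 other serpin are not reported here, though it is in the counts. Coordinates, lengths, shared windows of 50 bases and coding alignments (Biopython 1.88) came from GENCODE M21 (GRCm38), and promoter windows from RefSeq (GRCm38.p6). This annotation may not be the one the authors used. Figures were drawn with matplotlib 3.10.9 in Python 3.11.15.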

Additional observations from a re-analysis of the deposited data

Results flagged for a closer look

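In 58 groups of values (29 genes in 2 groups of samples), 3 held a sample far from the others, where chance gives about 1 in 20 groups. Serpinb9b was at 97.9 in replicate 4 before culture, against 50.5 to 61.9 in the other 4. Gzmb was at 457 in the same sample, against 289 to 324. Serpina3n was at 3087 in replicate 3 before culture, against 1440 to 1842. Without replicate 4 before culture the log2 differences were 7.06 for Serpinb9b and −2.99 for Gzmb, and without replicate 3 before culture that of Serpina3n was −3.40. The sum of the NK and cytotoxic cell markers was also highest in replicate 4 before culture (4567). So were the sums of the alveolar epithelial, T cell, and mast cell and basophil markers.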

How the results depend on the processing

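Across the alternatives, 658 of the recomputed values were rated the same, and 2 moved. The rating allowed a fixed ratio for counts and the pooled SD for members. Other named genes had to keep their direction and their side of the threshold. These are not 658 independent checks. The filters left the log2 differences of the genes kept unchanged. Each replicate block gave the same log2 difference as leaving out its sample without a partner. At a minimum mean of 50, the changed serpins outside the members went from 14 to 9, and the changed serpin of the chromosome 13 cluster that is no member went from 1 to 0, because fewer genes were tested and Serpinb1b lies under that mean. The count of members that differed by at least 2-fold was 8 under every alternative. Over all genes, 12524 were called, against 12562 by edgeR and 12663 by DESeq2, and leaving out 1 sample at a time gave 11770 to 12668. The direction of each of the 9 members was the same under every alternative, Serpinb2 included (log2 difference 0.31 to 0.67).

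Whether samples before and after culture share animals is not stated, and the numbers did not meet the rule for pairing (every correlation over 0.1). Same-numbered samples correlated at −0.213 to 0.0807 by title number and at 0.0447 to 0.349 by library number, where 3 of the samples before and 4 of those after culture correlated best with their own number. With a replicate block by title number 11646 genes were called, and by library number 12836. The block by title number gave 12 other serpins, 21 proteases and 13 inhibitors of other families, and that by library number 14, 21 and 13.

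Depth limits the low genes: 44 of the 60 other serpins were not tested, and Serpinb1b and Serpinb10 had at most 5 reads per sample in 1 of the groups.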
